A study of Oryza sativa with 6 samples.

Results

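Salt and control libraries of rice nodal roots were compared, 1 library a side, which makes 2 of the 6 libraries of the series. The salt roots came from plants of the genotype labelled Mulai given 50 mM NaCl for 7 days, and the control roots from plants of the same genotype without it. The other 4 libraries are the same pair for S-type laterals, which are short and do not branch, and for L-type laterals, which are longer and branch. All plants had days of 12 h at 30 °C and 70% humidity and nights of 12 h at 25 °C and 75% humidity, and strand-specific mRNA-seq libraries with inserts of 200 bp were made from each root type. The 2 nodal libraries held 7908373 fragments in genes under salt and 7897875 in the control, and 15223 of 37942 gene models had at least 50 scaled fragments in the higher of the pair. A scaled fragment is a fragment count multiplied by 1 factor per library, 0.829 in the salt library and 0.869 in the control library. No group has a replicate, so the comparison describes these libraries and gives no test. Every interval is a 95% interval of a log2 ratio and covers counting error alone. Printed ratios have 1 added to each scaled value, and intervals are of the ratio without it. The 2 differ most where fragments are few.

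Nodal roots, which in cereals arise from stem nodes and make up most of the mature root system, carry water and mineral ions to the shoot. Sodium chloride in the medium lowers the water potential that roots face and brings in sodium, which competes with potassium at channels and transporters. Known root responses include regulation of aquaporins, of sodium and potassium transporters of the HKT, AKT and HAK families, of abscisic acid signalling and of proline synthesis. Iron, zinc and copper enter rice roots through separate transporters and through chelates with nicotianamine and phytosiderophores.

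Few genes differed widely between salt and control nodal roots. At a 2-fold limit, 193 of the 15223 genes (1.27%) were higher under salt and 266 (1.75%) were lower, 3.02% in either direction, and 97% lay within 2-fold. The median log2 ratio over all 15223 genes was -0.02, the quartiles were -0.22 and 0.17, and 1 gene in 100 lay below -1.27 or, at the other end, above 1.09. The higher genes had a median of 137 scaled fragments in their higher library and the lower genes 111, against 221 over all measured genes. Among genes with at least 200 scaled fragments in the higher library, 70 were higher and 84 lower of 8147. The counting interval lay wholly past 2-fold for 76 higher and 118 lower genes. Around the limit the ratio, taken with 1 added to each value, is a continuum. On the higher side the gene just past 2-fold had 251 scaled fragments under salt and 125 in the control (log2 ratio 1.0004). The gene just under 2-fold there had 70.5 under salt and 34.8 in the control (log2 ratio 0.9997). On the lower side the gene just past 2-fold had 38.1 under salt and 77.3 in the control (log2 ratio -1.0005). The gene just under 2-fold there had 53.9 under salt and 108.6 in the control (log2 ratio -0.9972). The authors' deposited table called 0 of its 20603 tested genes for this pair with Cuffdiff, with a smallest q of 0.0582, while 46 higher and 47 lower genes had an unadjusted p under 0.05 there.

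**Figure D1:**
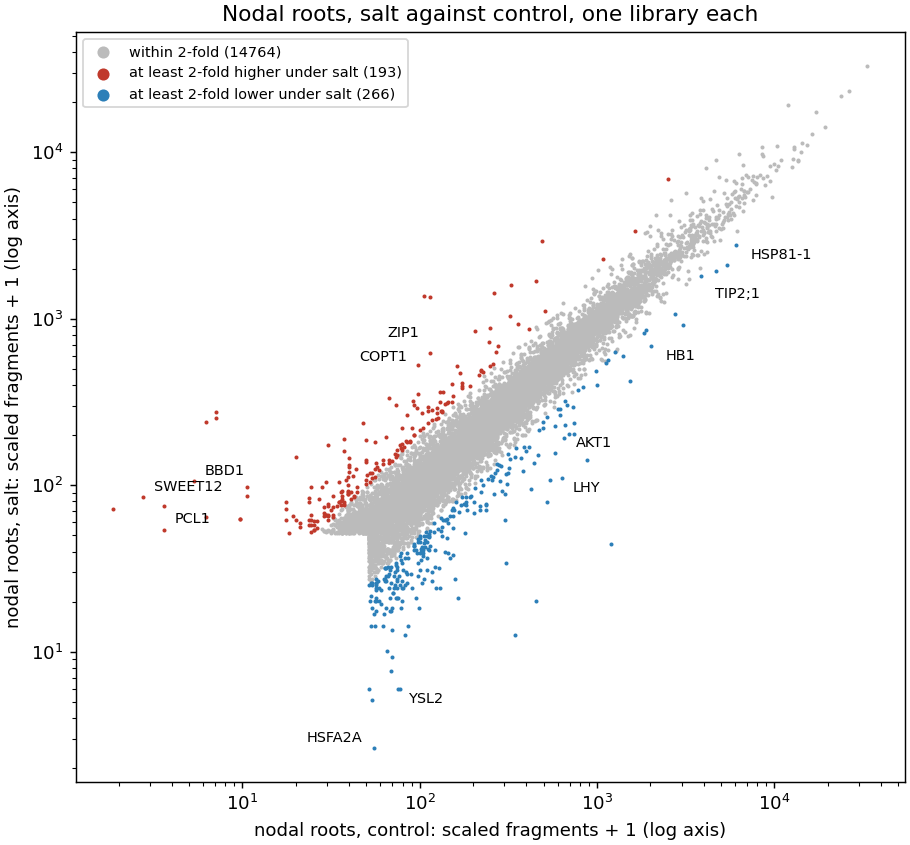
Scaled fragments plus 1 of each of 15223 genes in salt-treated nodal roots (vertical, log axis) and control nodal roots (horizontal, log axis), 1 library each; red marks the 193 genes at least 2-fold higher under salt and blue the 266 at least 2-fold lower. Most genes follow the diagonal, and the genes furthest from it, such as SWEET12 and PCL1 above and HSFA2A and YSL2 below, have few fragments in one of the libraries.

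Gene names here are those of 241 symbols in lists of pathways and markers, of which 186 had at least 50 scaled fragments in a nodal library. Listed symbols that failed the name check are not among the measured members of any list. Of the 133 measured members of the 171 symbols listed first, 8 were higher and 12 lower. The other 70 symbols were added with the values in view, partly because of them, and their 9 higher and 15 lower of 53 measured members cannot be read against the 3.02% of all genes. The first lists also covered pathways that earlier results of these data had shown to move. Counts in the first lists therefore cannot be read against the share of all genes either. Values below are scaled fragments, always with the log2 ratio of salt over control, and "higher" or "lower" without a value means at least 2-fold. In bulk root samples, fewer cells of a type and less RNA per cell cannot be told apart.

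Copper and zinc uptake genes were among the listed transporters with the highest ratios, though COPT1 and COPT7 were listed with values in view. COPT1 (Os01g0770700, chromosome 1, 32523314 to 32523953), a plasma membrane copper transporter, had 527 under salt, against 96.4 in the control (log2 ratio 2.44, interval 2.16 to 2.76). COPT7 (Os09g0440700, chromosome 9, 16347080 to 16347891), another copper transporter, had 523 under salt, against 162 in the control (log2 ratio 1.69, interval 1.46 to 1.94). ZIP1 (Os01g0972200, chromosome 1, 42905570 to 42907462), of the ZIP family of zinc and iron transporters, had 624 under salt, against 113 in the control (log2 ratio 2.45, interval 2.19 to 2.75). These 3 genes were thus from 3- to 6-fold higher in the salt library. The same ratio, salt over control of their own root type, was 1.29 for S-type and 1.35 for L-type roots for COPT1, 0.87 for S-type and 0.83 for L-type roots for COPT7 and 1.51 for S-type and 1.78 for L-type roots for ZIP1, each above 0.

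The rest of the copper and zinc lists stayed within 2-fold except a single laccase. The P-type ATPases that move copper, HMA4, HMA5 and HMA9, had log2 ratios of 0.28, 0.20 and -0.00. LAC3 (Os01g0827300, chromosome 1, 35402795 to 35405298), a laccase and so a multicopper oxidase of the cell wall, had 94.5 under salt, against 426 in the control (log2 ratio -2.16, interval -2.48 to -1.87), while LAC7 and LAC10 had log2 ratios of 0.13 and -0.57. In L-type roots LAC3 had 53.3 under salt and 33.8 in the control (log2 ratio 0.64), and in S-type roots it stayed under 50. Over the 8 measured genes of the copper list, which was added with values in view, 2 were higher and 1 lower, with a median of 0.17. Of the zinc list, ZIP1 was the only one of 5 measured members past 2-fold, with ZIP4, ZIP7, ZIP9 and the zinc pump HMA2 between -0.10 and 0.41 and a list median of 0.32. The 3 measured metallothioneins, small cysteine-rich metal-binding proteins, had log2 ratios of 0.11 (MT2B), 0.40 (MT1B) and 0.55 (MT2C).

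Copper-zinc superoxide dismutases lay on the other side. SODCC2, a cytosolic copper-zinc enzyme, had 304 under salt, against 676 in the control (log2 ratio -1.15, interval -1.33 to -0.97), and its relative SODCC1 had 1771 under salt, against 2649.8 in the control (log2 ratio -0.58, interval -0.66 to -0.50). SODA, the manganese enzyme, stood at -0.29. Of the hydrogen peroxide scavengers, CATA, a catalase, had 2008 under salt, against 3797 in the control (log2 ratio -0.92, interval -0.99 to -0.85), whereas CATB had 3877 under salt, against 2885 in the control (log2 ratio 0.43, interval 0.36 to 0.49). On FPKM in the authors' deposited table CATA was past 2-fold, with 197 FPKM under salt, against 454 FPKM in the control. The ascorbate peroxidases APX1 and APX2 had log2 ratios of 0.07 and -0.41. Over the 7 measured genes of the reactive oxygen list 1 was lower and 0 higher, beside 1.75% lower and 1.27% higher of all genes. The list median was -0.41, against -0.02 for all genes. SODCC2 stood at -2.09 for S-type and -1.65 for L-type roots and SODCC1 at -1.68 for S-type and -1.31 for L-type roots, below 0 in each root type.

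Iron genes lay mostly above 0, 7 of 11, with 1 large exception. Of 11 measured members of the iron list, 3 were higher and 1 lower, beside 1.27% higher and 1.75% lower of all genes. The median log2 ratio was 0.67, against -0.02 over all genes. The list was chosen with earlier results of these data known, so its figures cannot be read against those of all genes. VIT2 (Os09g0396900, chromosome 9, 13831870 to 13833638), a vacuolar iron transporter, had 301 under salt, against 91.2 in the control (log2 ratio 1.71, interval 1.41 to 2.05). YSL15 (Os02g0650300, chromosome 2, 26200020 to 26204980), which takes up iron bound to phytosiderophores, had 289 under salt, against 95.6 in the control (log2 ratio 1.58, interval 1.28 to 1.92). YSL16 (Os04g0542800, chromosome 4, 27183978 to 27187746), which moves metals bound to nicotianamine, had 362 under salt, against 129 in the control (log2 ratio 1.48, interval 1.21 to 1.76). YSL2 (Os02g0649900, chromosome 2, 26170850 to 26175202), another transporter of metal and nicotianamine complexes, went the other way, with 4.98 under salt, against 74.7 in the control (log2 ratio -3.66, interval -5.39 to -2.73), that is 6 fragments in the salt library and 86 in the control library.

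The nicotianamine synthases were all above 0 but under 2-fold in nodal roots. NAS1 had 589.6 against 370.1 in salt and control, NAS2 804 against 535 and NAS3 124 against 63.4, with log2 ratios of 0.67, 0.59 and 0.96. NRAMP5, the main manganese uptake transporter, which also carries cadmium, had 450.3 under salt, against 230.2 in the control (log2 ratio 0.96, interval 0.75 to 1.19). NAAT1, of phytosiderophore synthesis, stood at -0.24, NRAMP1 at -0.56 and VIT1 at -0.04. The iron transporter genes IRT1 and IRT2 and the regulator IRO3 stayed under 50 scaled fragments in both libraries. The laterals, each against its own control, gave NAS1 ratios of -5.05 for S-type and -2.57 for L-type roots, NAS2 ratios of -5.65 for S-type and -3.68 for L-type roots and YSL15 ratios of -2.22 for S-type and -1.23 for L-type roots, all below 0 where nodal roots were above 0. Other iron genes above 0 in nodal roots were above 0 in both laterals. NAS3 stood at 1.59 for S-type and 1.04 for L-type roots, and NRAMP5 at 0.15 for S-type and 0.37 for L-type roots. VIT2 stood at 2.77 for S-type and 1.84 for L-type roots, and YSL16 at 0.17 for S-type and 0.66 for L-type roots. YSL2 was below 0 everywhere, at -6.05 for S-type and -6.34 for L-type roots. Whether the root types differ was not tested, since each ratio rests on 1 library a side.

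Both silicon transporters of the root stood close to 2-fold higher. LSI1 (Os02g0745100, chromosome 2, 31266328 to 31269935), the influx channel of exodermis and endodermis, had 5662 under salt, against 3179 in the control (log2 ratio 0.83, interval 0.77 to 0.89). LSI2 (Os03g0107300, chromosome 3, 430697 to 432874), the efflux carrier on the opposite face of the same cells, had 4187 under salt, against 2159 in the control (log2 ratio 0.96, interval 0.89 to 1.03). Per length, the authors' deposited table gives 654 FPKM under salt, against 369 FPKM in the control for LSI1, and 307 FPKM under salt, against 159 FPKM in the control for LSI2. LSI6, a relative that works mainly in shoots and at nodes, stood at -0.11. CASP1, which marks the Casparian strip of the same cell layers, had 247 under salt, against 237 in the control (log2 ratio 0.06, interval -0.18 to 0.30). In laterals LSI1 stood at 0.04 for S-type and 0.30 for L-type roots and LSI2 at 0.17 for S-type and 0.60 for L-type roots.

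**Figure D2:**
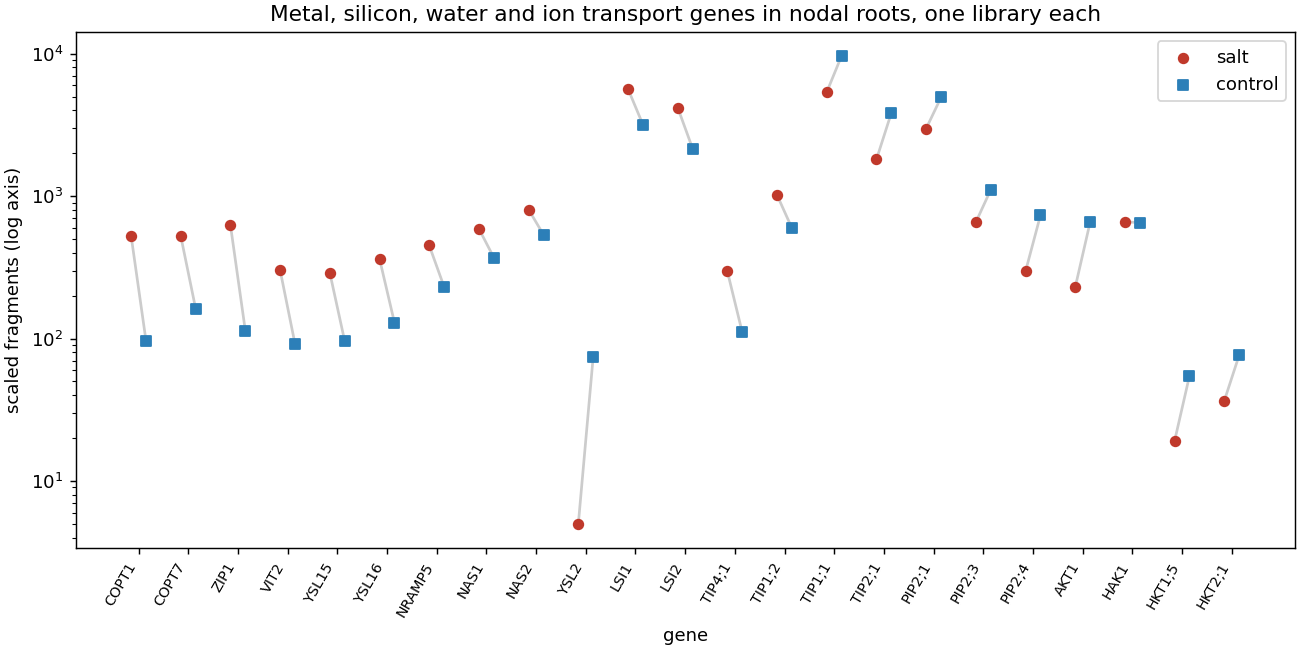
Scaled fragments (vertical, log axis) of metal, silicon, water and ion transport genes (horizontal) in nodal roots, with salt as a red circle left of the control as a blue square, 1 library each. COPT1, COPT7, ZIP1, VIT2, YSL15, YSL16 and TIP4;1 are higher under salt, and YSL2, TIP2;1, PIP2;4, AKT1, HKT1;5 and HKT2;1 lower.

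Aquaporins of the plasma membrane were all below 0, and those of the vacuolar membrane split. All 8 measured PIP genes had a ratio below 0, with a median of -0.28, though 1 of them was past 2-fold. PIP2;4 (Os07g0448100, chromosome 7, 15358960 to 15360391) had 296 under salt, against 732 in the control (log2 ratio -1.30, interval -1.49 to -1.12). PIP2;1 had 2979 under salt, against 4932 in the control (log2 ratio -0.73, interval -0.79 to -0.67), and PIP2;3 had 655 under salt, against 1107 in the control (log2 ratio -0.76, interval -0.89 to -0.63). On FPKM in the authors' deposited table PIP2;1 was past 2-fold too, with 547 FPKM under salt, against 1279 FPKM in the control. The PIP1 water channels, PIP1;1, PIP1;2 and PIP1;3, stood at -0.30, -0.18 and -0.19, and PIP2;2 at -0.10. PIP2;5, PIP2;7 and PIP2;8 stayed under 50 scaled fragments.

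Tonoplast aquaporins let water and small solutes cross the vacuolar membrane. Of the 5 measured, 1 was higher and 1 lower, beside 1.27% higher and 1.75% lower of all genes. TIP2;1 (Os02g0658100, chromosome 2, 26608375 to 26609819) had 1809 under salt, against 3840.0 in the control (log2 ratio -1.09, interval -1.16 to -1.01), and TIP1;1 had 5375 under salt, against 9685 in the control (log2 ratio -0.85, interval -0.89 to -0.81). TIP2;2 stood at -0.55. In the opposite direction TIP4;1 (Os05g0231700, chromosome 5, 8000547 to 8002989) had 296 under salt, against 110.3 in the control (log2 ratio 1.42, interval 1.13 to 1.73), and TIP1;2 had 1017 under salt, against 595 in the control (log2 ratio 0.77, interval 0.64 to 0.91). Per length, in the authors' deposited table, TIP1;1 was the most abundant of these 5 genes, at 861 FPKM under salt, against 1634 FPKM in the control, while TIP4;1 had 39.5 FPKM under salt, against 14.8 FPKM in the control. The laterals gave TIP4;1 ratios of 0.17 for S-type and 0.59 for L-type roots and TIP2;1 ratios of -0.52 for S-type and -0.35 for L-type roots.

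Both measured sodium transporters and the potassium channel AKT1 were lower, while the HAK carriers lay within 2-fold. Of the listed sodium genes, SOS1, NHX1 and CBL4 failed the name check and are not covered. HKT1;5 (Os01g0307500, chromosome 1, 11458956 to 11463442), which withdraws sodium from the xylem, had 19.1 under salt, against 54.7 in the control (log2 ratio -1.47, interval -2.28 to -0.81). HKT2;1 (Os06g0701700, chromosome 6, 29538938 to 29541203), a sodium influx transporter, had 36.5 under salt, against 76.5 in the control (log2 ratio -1.05, interval -1.62 to -0.53). Both rest on few fragments, 23 and 44 in the salt library, and their counting intervals reach under 2-fold. HKT2;1 fell short of 2-fold with a pseudocount of 5, scaled to the library total and on FPKM, at -0.97, -0.98 and -0.97. AKT1 (Os01g0648000, chromosome 1, 26119639 to 26126165), the inward potassium channel, had 229 under salt, against 655 in the control (log2 ratio -1.51, interval -1.72 to -1.32). Its known activating kinase CIPK23 stood at 0.05. CIPK31 (Os03g0319400, chromosome 3, 11526273 to 11531969), another kinase of the family that calcium sensors switch on, had 101 under salt, against 311 in the control (log2 ratio -1.61, interval -1.93 to -1.32). CIPK24, the kinase of the sodium export pathway, had 153 under salt, against 128 in the control (log2 ratio 0.25, interval -0.06 to 0.58).

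Of the potassium carriers, HAK1 had 661 under salt, against 651 in the control (log2 ratio 0.02, interval -0.12 to 0.17), and the 7 measured HAK genes lay between 0.02 and 0.55. HAK5 and HAK16 stayed under 50 scaled fragments. Over both potassium lists 2 of 10 measured genes were lower and 0 higher, with a median of 0.07. Of these 10, 7 were listed with values in view, CIPK31 and all measured HAK genes but HAK1. The count therefore cannot be read against the 3.02% of all genes. HKT1;1, HKT1;3 and HKT1;4 had at most 2 fragments in either nodal library. AKT1 stood at -0.98 for S-type and -0.53 for L-type roots, where CIPK31 stayed under 50 scaled fragments.

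The measured listed genes of abscisic acid, dehydration and osmotic stress stayed within 2-fold. None of the 20 measured members of the 3 lists was past 2-fold, beside the 3.02% of all genes. At that share a list of this length would hold few or none. Listed genes whose symbol failed the name check are not covered, among them SNAC1, DREB2A, BZIP46, NCED4, NCED5 and WSI18. The largest ratio was that of P5CS2, the stress-inducible enzyme of proline synthesis, which had 623 under salt, against 333 in the control (log2 ratio 0.90, interval 0.72 to 1.09). Its sister P5CS1 stood at 0.10. In L-type roots P5CS2 stood at 1.54, and in S-type roots it stayed under 50 scaled fragments. ABA8OX1, a hydroxylase that breaks abscisic acid down, had 1416 under salt, against 964 in the control (log2 ratio 0.55, interval 0.44 to 0.66), and NCED3, of its synthesis, had 58.9 under salt, against 45.2 in the control (log2 ratio 0.37, interval -0.15 to 0.93). Of the transcription factors, DREB1A stood at 0.53, MYB2 at 0.56, DREB2B at 0.25, NAC6 at 0.28 and NAC5 at 0.04, while BZIP23 was at -0.42. The phosphatases PP2C30, PP2C50 and PP2C68, which restrain abscisic acid signalling, stood at -0.37, 0.13 and -0.52. The SALT gene had 131 under salt, against 111 in the control (log2 ratio 0.23, interval -0.11 to 0.58). The dehydrins RAB16B, RAB16C and RAB16D and LEA3 stayed under 50 scaled fragments in both libraries.

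**Figure D3:**
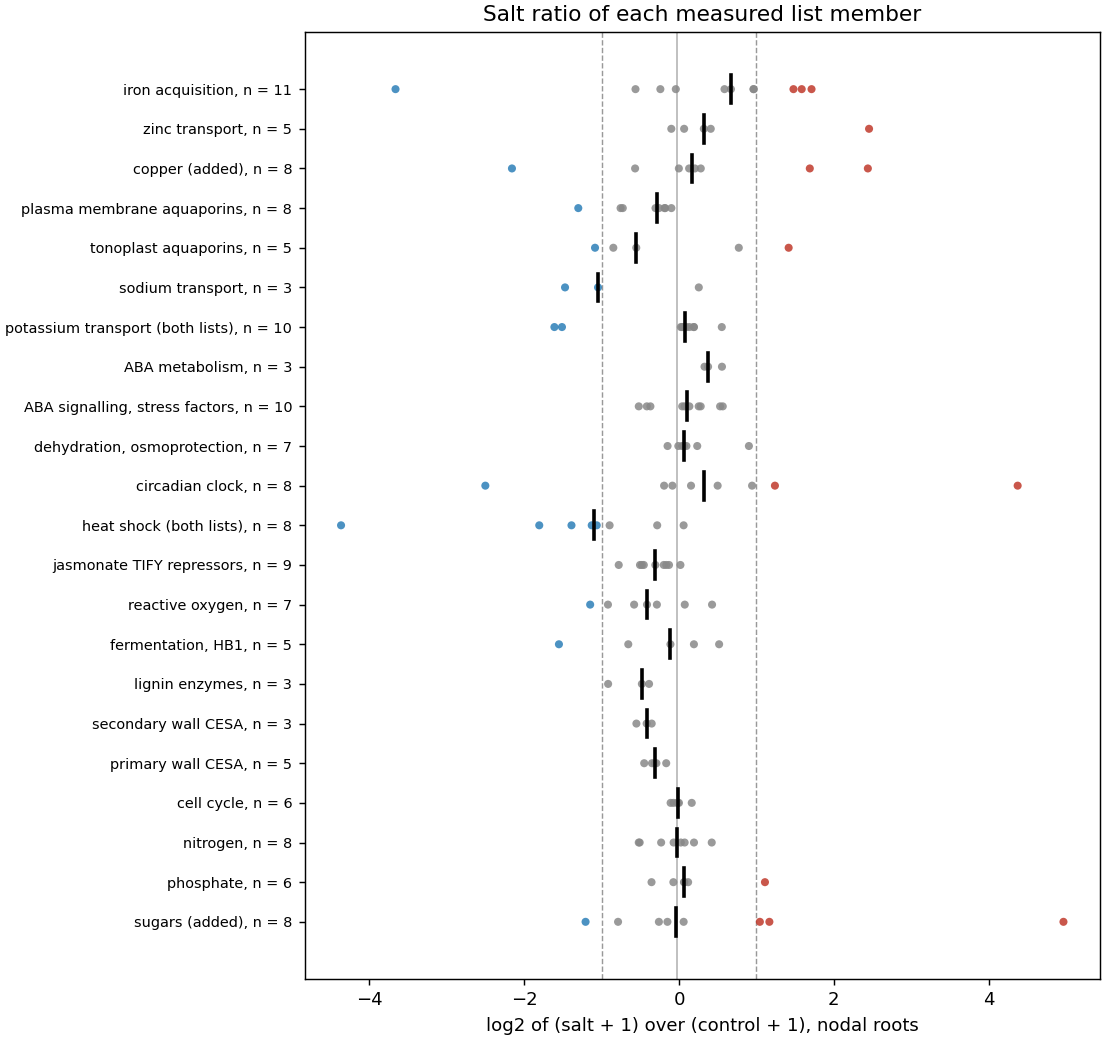
Log2 of salt plus 1 over control plus 1 in nodal roots (horizontal) for each measured member of 22 gene lists (rows), with a black bar at the list median, dashed lines at 2-fold and a grey line at the median of all genes, -0.02. Red points are at least 2-fold higher and blue at least 2-fold lower; the iron list sits mostly right of 0 with YSL2 far left, and the heat shock list mostly left.

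Most of the listed heat shock genes that were measured were lower in the salt library, though most were listed with values in view. Over both heat shock lists, 5 of 8 measured genes were lower and 0 higher, with a median of -1.10. Of the 8, 6 belong to the list added with values in view. The count therefore cannot be read against the 1.75% of all genes that were lower. In the first heat shock list 1 of 2 measured genes was lower, HSFA2A. HSP81-1 (Os08g0500700, chromosome 8, 24719117 to 24723603), a cytosolic HSP90 chaperone, had 2794 under salt, against 6109 in the control (log2 ratio -1.13, interval -1.19 to -1.07), one of the 10 largest losses in scaled fragments among genes past 2-fold. HSFA2A (Os03g0745000, chromosome 3, 30604067 to 30607159), a heat shock transcription factor, had 2 fragments in the salt library and 62 in the control library (log2 ratio -4.37, interval -8.10 to -3.11). HSFB2A, of the class that lacks an activation domain, had 19.9 under salt, against 72.1 in the control (log2 ratio -1.81, interval -2.58 to -1.19). CLPB-M, a ClpB protein disaggregase, had 69.7 under salt, against 184 in the control (log2 ratio -1.39, interval -1.78 to -1.03), and the small heat shock protein gene HSP17.9B had 43.1 under salt, against 91.2 in the control (log2 ratio -1.06, interval -1.59 to -0.59). HSP26.2 stood at -0.90, HSP18.8 at 0.06 and BIP1, the chaperone of the endoplasmic reticulum, at -0.28. Another 12 listed genes, HSP101 among them, stayed under 50 scaled fragments in both libraries. HSP81-1 stood at -0.03 for S-type and -0.40 for L-type roots.

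Of 3 measured non-symbiotic haemoglobins, which bind oxygen tightly and scavenge nitric oxide when oxygen is short, HB1 and NSHB2 were lower. NSHB2 and NSHB3 were listed with values in view. HB1 (Os03g0233900, chromosome 3, 7092864 to 7093988) had 686 under salt, against 2013 in the control (log2 ratio -1.55, interval -1.67 to -1.44), and NSHB2 (Os03g0226200, chromosome 3, 6624980 to 6626080) had 60.5 under salt, against 302 in the control (log2 ratio -2.30, interval -2.70 to -1.95). In laterals HB1 stood at -3.26 for S-type and -1.59 for L-type roots and NSHB2 at -2.30 for S-type and -2.26 for L-type roots, below 0 in every root type. NSHB3 had 63.9 under salt, against 50.4 in the control (log2 ratio 0.34, interval -0.17 to 0.86). ADH1, the alcohol dehydrogenase of fermentation, had 264 under salt, against 416 in the control (log2 ratio -0.66, interval -0.87 to -0.45), and PDC2, the pyruvate decarboxylase before it, stood at -0.11. The sucrose synthases SUS2 and SUS4 had log2 ratios of 0.19 and 0.52.

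Genes of the circadian clock differed at both ends. LHY (Os08g0157600, chromosome 8, 3360788 to 3373437), a repressor that peaks around dawn, had 110.3 under salt, against 629.9 in the control (log2 ratio -2.50, interval -2.79 to -2.25). PCL1 (Os01g0971800, chromosome 1, 42874273 to 42875515), a homologue of the evening component LUX of Arabidopsis, had 89 fragments in the salt library and 3 in the control library (log2 ratio 4.37, interval 3.23 to 7.13). PRR1, the rice counterpart of Arabidopsis TOC1, had 633 under salt, against 268 in the control (log2 ratio 1.24, interval 1.05 to 1.44). GI, which acts in the evening and in flowering time, had 9002 under salt, against 4681 in the control (log2 ratio 0.94, interval 0.90 to 0.99). PRR95 stood at 0.50, ELF3 at 0.15, PRR73 at -0.09 and PRR37 at -0.19. Of 8 measured genes 2 were higher and 1 lower, beside 1.27% higher and 1.75% lower of all genes. The clock list was chosen with earlier results of these data known, so the count cannot be read against those shares. LHY stood at -3.14 for S-type and -2.17 for L-type roots, PCL1, with 1 control fragment in each lateral type, at 5.58 for S-type and 6.29 for L-type roots, and PRR1 at 0.71 for S-type and 0.29 for L-type roots, in each case on the same side of 0 as in nodal roots. The time of day at which roots were taken is not given in the sources used here, and its part in these ratios was not tested.

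Genes of photosynthesis, listed as markers of green tissue, were lower as well. CAB1R had 30.7 under salt, against 127 in the control (log2 ratio -2.01, interval -2.61 to -1.52), and CAB2R had 17.42 under salt, against 98.2 in the control (log2 ratio -2.43, interval -3.24 to -1.81); both encode light-harvesting proteins of chloroplasts. The summed level of the 4 green markers with a checked name was 48.1 under salt, against 239.8 in the control. GLK1 and PORA stayed under 50 scaled fragments in both libraries, at 0 under salt and at 6.08 and 8.69 in the control. The corresponding sums were 26.1 under salt and 66.9 in the control for S-type roots, and 56.1 under salt and 198 in the control for L-type roots. The part of these transcripts in the other differences was not tested.

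**Figure D4:**
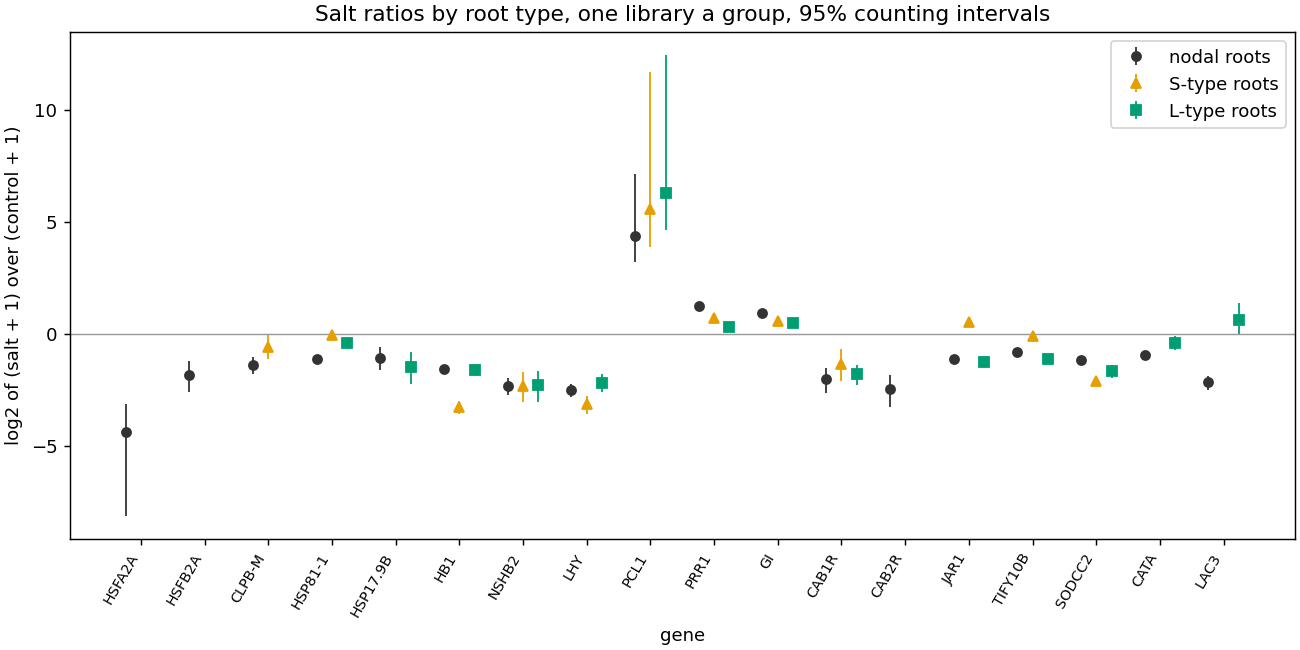
Log2 of salt plus 1 over control plus 1 (vertical) for heat shock, haemoglobin, clock, light-harvesting, jasmonate, antioxidant and laccase genes (horizontal) in nodal (black circles), S-type (orange triangles) and L-type roots (green squares), 1 library a group, with 95% counting intervals. A missing symbol means under 50 scaled fragments in both libraries of that root type; LHY is below 0 and PCL1 above 0 in each root type.

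The measured cellulose synthases and the 3 measured members of the lignin list had ratios below 0, within 2-fold. Of 11 listed lignin symbols 3 had a checked name, and no PAL gene was among them. The 3 cellulose synthases of secondary walls, CESA4, CESA7 and CESA9, stood at -0.35, -0.55 and -0.42, with CESA7 at 1469.5 under salt, against 2154 in the control. The 5 of primary walls, CESA1, CESA3, CESA5, CESA6 and CESA8, lay between -0.45 (CESA6) and -0.17 (CESA3). All 8 were thus below 0 and none past 2-fold, and their counting intervals exclude 0. In the lignin pathway, 4CL3, which activates phenolic acids with coenzyme A, had 1268 under salt, against 2394 in the control (log2 ratio -0.92, interval -1.01 to -0.83), while COMT1 and CAD2 stood at -0.48 and -0.39. ABCG5, a transporter needed for suberin in the hypodermis, had 112 under salt, against 205 in the control (log2 ratio -0.87, interval -1.19 to -0.56). In L-type roots CESA7 stood at 0.58 and ABCG5 at 0.81, and in S-type roots both stayed under 50 scaled fragments. The 4 measured expansins of the first lists, which loosen walls in growing cells, were within 2-fold, at 0.43 for EXPA17, 0.36 for EXPB2, 0.21 for EXPA2 and -0.08 for EXPA4.

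Markers of dividing cells gave nearly equal values in salt and control. The mitotic cyclin gene CYCB1;1 had 697 under salt, against 707 in the control (log2 ratio -0.02, interval -0.16 to 0.12), and CDKB2;1, a mitotic cyclin-dependent kinase, had 487 under salt, against 493 in the control (log2 ratio -0.02, interval -0.19 to 0.15). PCNA, the sliding clamp of DNA replication, had 817 under salt, against 818 in the control (log2 ratio -0.00, interval -0.13 to 0.13). The 6 measured cell cycle genes lay between -0.11 and 0.16. The root hair markers CSLD1 and EXPA17 stood at 0.28 and 0.43. Of the genes of root patterning and auxin transport, SHR1 was at 0.23, SCR1 at -0.14, PIN2 at -0.09, PIN1A at -0.30, PIN1B at -0.17, IAA11 at -0.29 and IAA23 at 0.35. PIN9, an auxin carrier, had 52.2 under salt, against 29.5 in the control (log2 ratio 0.80, interval 0.20 to 1.47), and none of the 8 measured genes of that list was past 2-fold.

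Jasmonate repressors had ratios mostly a little below 0. Of the 9 measured TIFY genes, which encode repressors of jasmonate signalling that the hormone itself induces, 8 were below 0 and 1 above, with a median of -0.31 and none past 2-fold. JAR1 and all of these but TIFY11B were listed with values in view. TIFY10B had 1099 under salt, against 1887 in the control (log2 ratio -0.78, interval -0.88 to -0.68), the lowest, and TIFY11B had 784 under salt, against 774 in the control (log2 ratio 0.02, interval -0.12 to 0.15), the highest. JAR1 (Os05g0586200, chromosome 5, 29200200 to 29205715), which joins jasmonate to isoleucine and so makes the active hormone, had 286 under salt, against 616 in the control (log2 ratio -1.10, interval -1.30 to -0.92). AOC and OPR7, 2 enzymes of jasmonate synthesis, stood at -0.43 and -0.45. JAR1 stood at 0.52 for S-type and -1.23 for L-type roots.

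In the nitrogen and phosphate lists 1 measured gene was past 2-fold, PT4. Of 17 listed nitrogen symbols 12 had a checked name, and of these the 8 measured were within 2-fold. GS1;1, a cytosolic glutamine synthetase, had 3482 under salt, against 4997 in the control (log2 ratio -0.52, interval -0.58 to -0.46), and GS2, the plastid form, had 696 under salt, against 990.4 in the control (log2 ratio -0.51, interval -0.64 to -0.38). GS1;2 stood at 0.19, FD-GOGAT at 0.42, and the ammonium transporters AMT1;1 and AMT1;3 at -0.07 and -0.23. PT4, a phosphate transporter, had 106 under salt, against 48.7 in the control (log2 ratio 1.11, interval 0.66 to 1.61), the only one of 6 measured phosphate genes past 2-fold. PT1 was at 0.06, PT8 at 0.12, SPX1 at 0.07, PHR2 at -0.07 and PHO1;2, which loads phosphate into the xylem, at -0.36.

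Sugar genes moved singly. SWEET12 (Os03g0347500, chromosome 3, 13004689 to 13008130), of the SWEET family of sugar transporters, had 102 fragments in the salt library and 2 in the control library (log2 ratio 4.97, interval 3.72 to 8.67), the fifth highest ratio of all 15223 genes. It stayed under 50 in the laterals, with 37.7 under salt and 0 in the control of L-type roots and 0 in both S-type libraries. SWEET1A had 837 under salt, against 1446 in the control (log2 ratio -0.79, interval -0.90 to -0.68), and SWEET4 and SWEET14 stood at -0.15 and -0.26. CIN5, a cell wall invertase, had 76.3 under salt, against 36.5 in the control (log2 ratio 1.04, interval 0.52 to 1.63), and TPP3, a trehalose phosphate phosphatase, had 87.1 under salt, against 38.2 in the control (log2 ratio 1.17, interval 0.67 to 1.73). RFS, a raffinose synthase, had 148 under salt, against 342 in the control (log2 ratio -1.21, interval -1.48 to -0.95). The sucrose transporter SUT4 stood at 0.06. SWEET12, CIN5, TPP3 and RFS were listed with their values in view.

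Another 10 measured genes were named because they passed 2-fold. BBD1, a nuclease, had 105 under salt, against 4.34 in the control (log2 ratio 4.31, interval 3.34 to 6.25), and BGLU16, a beta-glucosidase, had 146 under salt, against 19.1 in the control (log2 ratio 2.87, interval 2.29 to 3.64). NEK1, a protein kinase, stood at 1.49 and CAD8C, of the cinnamyl alcohol dehydrogenase family, at 1.06. BURP17, a protein with a BURP domain, had 25.7 under salt, against 116 in the control (log2 ratio -2.13, interval -2.78 to -1.60). CAD6 stood at -1.29, PDR9, an ABC transporter, at -1.11, EXPB16, an expansin, at -1.09, MCM9 at -1.06 and DUR3, a urea transporter, at -1.0005, the last just past the limit and short of it with TMM, median-of-ratios and library-total scaling, on FPKM and with a pseudocount of 5. In L-type roots BGLU16 stood at 2.82, and in S-type roots it stayed under 50 scaled fragments.

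Most of the extreme genes carry no symbol in these lists. The 15 highest log2 ratios ran from 2.69 to 5.29, and 4 of them belong to genes with a symbol, SWEET12, PCL1, BBD1 and BGLU16. The highest, Os03g0129400, had 275 under salt, against 6.08 in the control (log2 ratio 5.29, interval 4.44 to 6.83). Among the 15 lowest, from -4.77 to -2.69, HSFA2A and YSL2 are the 2 with a symbol. The lowest 2, Os05g0217700 and Os05g0217800, are neighbours on chromosome 5, from 7249980 to 7251356 and from 7255510 to 7257163. The first had 11.6 under salt, against 344 in the control (log2 ratio -4.77, interval -5.77 to -4.13) and the second 43.1 under salt, against 1203 in the control (log2 ratio -4.77, interval -5.23 to -4.40). If these neighbours are near-identical copies, reads may be split between them. By absolute gain, Os12g0136500 led, with 6905 under salt, against 2520.3 in the control (log2 ratio 1.45, interval 1.39 to 1.52). The 10 largest gains among genes past 2-fold ran from 717 to 4384 scaled fragments, with no gene with a symbol among them, and the 10 largest losses from 1019 to 3315, with HSP81-1, TIP2;1 and HB1 among them.

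Some of the lower genes were next to each other in the order of measured genes along chromosomes. Of the 266 lower genes, 52 (19.5%) had an adjacent measured gene that was also lower, while 6 of the 193 higher genes (3.11%) had an adjacent higher gene. Beside these shares, 1.75% of all measured genes were lower and 1.27% higher, and a gene on either side counted as adjacent. Adjacent genes could lie at any distance, as in a chromosome 12 pair that starts at 14054086 and 14411366. Runs of lower neighbours include 4 genes on chromosome 7 between 2176824 and 2184996 and 3 on chromosome 3 between 33023016 and 33029298, among others. Adjacent genes can be tandem copies or overlap, so their counts need not be separate observations, and the shares were not compared by a test.

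The genes past 2-fold in nodal roots were set beside the same genes in the laterals. Of the 193 genes higher in nodal roots, 158 had at least 50 scaled fragments in an S-type library and 181 in an L-type library, with median log2 ratios of 0.25 and 0.56 there. Of the 266 lower genes, 105 and 135 were measured in S-type and L-type roots, with medians of -0.56 and -0.84. These genes were picked on the nodal ratio, so the sizes cannot be compared between root types. Past 2-fold in the opposite direction were 8 genes in S-type roots, 5 of them higher and 3 lower in nodal roots, and 11 in L-type roots, 7 of them higher and 4 lower. The share of all genes past 2-fold in each lateral type is not given here. These counts therefore cannot be called many or few.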

How the data were processed

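Messenger RNA of 6 rice libraries was sequenced, and the nodal salt and nodal control libraries are compared here. The submitters' processing notes list, with no role or order, IRGSP-1.0, Cuffdiff 2.2.1, Cufflinks 2.2.1, TopHat2 2.0.11, Bowtie and Trimmomatic 0.32; settings are not given in the sources used here. The table deposited by the authors holds a scaled signal per gene, and whole fragments were recovered from it (at least 99.96% of nodal values were whole within 0.02 fragments). A comparison table deposited by the authors gives FPKM per library with Cuffdiff's p-values and q-values. The members and the lists were chosen with earlier results of these data known.

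The log2 ratio of scaled fragments plus 1 was taken for genes with at least 50 in the higher library, joined to Rice Annotation Project identifiers, which 37007 of 37942 gene models carry. Of the 15223 genes, 151 had no identifier, 13 of them past 2-fold. Exact conditional binomial 95% intervals, computed with scipy 1.17.1 from whole fragments without the added 1, cover counting error alone. PCR copies are not independent molecules. The code was tested on simulated data. TMM factors came from edgeR 4.0.16.

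No gene names stand in the files. Symbols were recalled with their identifiers and kept when a RefSeq table of another assembly (ASM3414082v1) placed the symbol on the same chromosome within 10 kb of the position expected from neighbours, at 0.4 to 1.6 times the length. Of 238 symbols 171 passed, and of 84 added ones 70. The genes set for naming were the checked list members, the 15 highest and 15 lowest ratios and the 10 largest gains and losses, described by counts where they carry no symbol, with identifiers for 4. Some checked members that were within 2-fold or under 50 scaled fragments are not named one by one. Gene families and promoter motifs were not analysed here. Coordinates are 1-based on IRGSP-1.0.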

Additional observations from a re-analysis of the deposited data

Results flagged for a closer look

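Of the genes with a symbol, 2 past 2-fold in nodal roots were past 2-fold in the opposite direction in a lateral root type. YSL15 had a log2 ratio of salt over control of 1.58 in nodal roots, against -2.22 for S-type and -1.23 for L-type roots. PDR9 had -1.11 in nodal roots, against 2.99 in S-type roots, and stood at -3.74 in L-type roots. Each ratio rests on 1 library a side, and these differences were not tested.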

How the results depend on the processing

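No paired analysis was possible because each group has 1 library and no result comes from a test; for the same reason no library could be left out. The counts of 193 higher and 266 lower genes followed the limits set. They were 576 and 660 with a minimum of 10 scaled fragments, 70 and 84 with a minimum of 200, and 1449 and 1479 with no minimum. With the counting interval wholly past 2-fold they were 76 and 118, with a fold of 1.5 they were 691 and 870, and with a fold of 4 they were 30 and 33. Pseudocounts of 0.5 and 5, TMM and median-of-ratios scaling, scaling to the library total and FPKM left both counts within 1.5 times. Scaling to the library total moved the split most, to 231 higher and 235 lower, and raised the median of all genes to 0.04. Genes with a symbol past 2-fold numbered 44, and between 40 and 44 of them stayed past it under the other pseudocounts, scalings and FPKM. Beside HKT2;1 and DUR3, the calls lost were CIN5 and HSP17.9B with a pseudocount of 5, and HSP17.9B and MCM9 scaled to the library total. The calls gained were GI, NRAMP5, NAS3 and LSI2 scaled to the library total, at 1.01, 1.03, 1.03 and 1.02, and PIP2;1 and CATA on FPKM.

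List medians of the log2 ratio moved beyond the counting interval as follows. With a minimum of 200, iron acquisition stood at 0.96, zinc transport at 1.43, fermentation and sucrose breakdown at -0.38, the sugar list at -0.79 and heat shock at -0.71. With no minimum, all aquaporins stood at -0.28, iron acquisition at 0.37, fermentation at -0.38 and the plasma membrane aquaporins at -0.35, the last also with a minimum of 10. Scaled to the library total, lignin enzymes stood at -0.42, reactive oxygen at -0.35, plasma membrane aquaporins at -0.22, tonoplast aquaporins at -0.49 and primary wall cellulose synthases at -0.25. On FPKM, lignin enzymes stood at -0.57 and primary wall cellulose synthases at -0.56. Depth limits genes such as SWEET12, PCL1 and HSFA2A, with at most 3 fragments in one library.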
